A study of Mus musculus with 12 samples.

Results

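EpiLCs are the cells that mouse embryonic stem cells become once LIF and the 2 inhibitors that hold them in the naive state are withdrawn, and they resemble the early postimplantation epiblast. Replication fork direction was compared between KMT2C/D dCD EpiLCs and control EpiLCs by OK-seq, which sequences Okazaki fragments strand by strand. The comparison used 4 of the 12 samples of the series, 2 biological replicates for each condition, and was carried out on every 1 kb bin of the 19 autosomes. KMT2C/D dCD cells carry both methyltransferases in a catalytically dead form and come from male KMT2D cCD embryonic stem cells (R1) of a 129 strain background. Control cells were not wild type: they lacked KMT2C (KMT2C KO), retained KMT2D, and belonged to the KMT2C KO/KMT2D cKO line with CreER, of mixed C57BL/6 and 129 background and undetermined sex. KMT2C/D dKO cells are that same line after 4-hydroxytamoxifen removed KMT2D as well, and are given only beside the main values because they share the control. The mutation and the parental line therefore cannot be told apart in any difference below. The deposited track of each condition holds the summed reads of its replicates, so each condition gives 1 value, no test between conditions was possible, and the 95% intervals cover counting error only.

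KMT2C and KMT2D are the methyltransferases that place most H3K4 monomethylation at enhancers, and each works in a complex with WDR5, RBBP5, ASH2L and DPY30 and with subunits of its own such as PTIP. DNA replication starts at origins, which are licensed by ORC and the MCM helicase and then fired, and each origin sends a fork out to either side. The lagging strand of a fork is made as Okazaki fragments, so the strand on which those fragments map tells which way the fork was moving. The Crick percentage, the share of Crick reads among all reads of a window, is the share of forks that moved from left to right, and 50% means no preferred direction. It rises from left to right across a zone where forks start and falls where they meet.

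The Crick percentage of a short bin also goes with its base composition, as bins of 1 kb show. The 3 given here were taken from the 2 bins with the lowest and the 2 with the highest content of T minus A on the reference strand among the 53 that held 20 or more reads in both libraries and no unknown base. The names go by the whole 1 kb bin. T minus A was -11.7% of the bases in the A-rich bin, 25.7% in T-rich bin 1 and 27.3% in T-rich bin 2. The first 150 bases of each are given from mm10, reference strand, 5′ to 3′, with A in capitals in the A-rich bin and T in capitals in the T-rich bins. These bases are a part of the bin, and in the A-rich bin this part does not itself hold more A than T.
A-rich bin at chr19:45650001-45650150: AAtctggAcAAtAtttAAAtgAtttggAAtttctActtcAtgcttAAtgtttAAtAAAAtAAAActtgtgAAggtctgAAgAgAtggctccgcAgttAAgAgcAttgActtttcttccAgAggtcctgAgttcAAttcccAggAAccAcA
T-rich bin 1 at chr13:12911001-12911150: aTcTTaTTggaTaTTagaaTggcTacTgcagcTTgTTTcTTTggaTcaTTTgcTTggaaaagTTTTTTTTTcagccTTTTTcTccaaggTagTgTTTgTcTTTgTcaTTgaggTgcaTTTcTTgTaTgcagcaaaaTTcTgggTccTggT
T-rich bin 2 at chr3:106126001-106126150: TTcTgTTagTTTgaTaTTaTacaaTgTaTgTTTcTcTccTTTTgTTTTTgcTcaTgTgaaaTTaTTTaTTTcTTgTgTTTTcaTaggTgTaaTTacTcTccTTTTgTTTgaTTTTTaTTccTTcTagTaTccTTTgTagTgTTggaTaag
In T-rich bin 2, on chromosome 3, most reads were Crick, with 1 Watson and 22 Crick reads in the control and 2 and 20 in dCD. T-rich bin 1, on chromosome 13, held 6 Watson and 28 Crick reads in the control and 5 and 21 in dCD. The A-rich bin, on chromosome 19, went the other way for its composition, with 14 Watson and 24 Crick reads in the control and 8 and 16 in dCD. The other A-rich bin is not shown, so these 3 do not give the share of bins that follow the pattern. In GENCODE M21, the A-rich bin lies in an intron of Fbxw4, an F-box gene on the minus strand, and T-rich bin 2 in an intron of Chia1, a chitinase gene on the plus strand, while T-rich bin 1 lies in no annotated gene. The median covered bin held 5 reads in either library, so these bins are far above the usual depth. Over all autosomal bins in which A exceeded T by more than 10 percentage points of the bases, the Crick percentage was 30.1% in the control and 26.5% in dCD. In bins where T exceeded A by 10 points or more it was 69.8% in the control and 73.3% in dCD, so both libraries leaned the same way and dCD leaned further. The slope of the Crick share of a bin on its T minus A content, relative to neighbouring bins, was 1.2 in the control, 1.41 in dCD and 1.37 in EpiLC dKO. The long windows used below average this composition over many bins, and the values with it taken off are given where they differ.

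The control track held 11407678 reads and the dCD track 13601460. After 130 bins with over 10 times the median count were left out, 11058435 and 13205558 autosomal reads remained, a mean of 225 and 268 reads for each 50 kb. The Crick percentage over all autosomes was 49.996% in the control and 49.953% in dCD. Reads are from genomic DNA and carry the strand of synthesis, so expression markers of EpiLCs and the change of the catalytic site could not be read from them. Reads covered Kmt2c (1314 in control, 1562 in dCD) and Kmt2d (305 and 311) in both libraries.

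Read share by autosome differed between dCD and control beyond counting error on most chromosomes. The read share is the fraction of all autosomal reads that fell in a region, and the ratio is the dCD share over the control share. Chromosome 6 had the highest ratio, 1.061 (95% counting interval 1.057 to 1.064), with 6.02% of reads in the control and 6.39% in dCD. Chromosome 3 had the lowest, 0.942 (0.939 to 0.945), with 6.58% and 6.20%. The interval lay above 1 on 8 autosomes and below 1 on 8, and the SD over the 19 ratios was 0.0287. Chromosomes 2 and 8 followed chromosome 6 at 1.03 each, and chromosome 18 stood next to chromosome 3 at 0.961. Naive dCD over naive control, which used other libraries of the same lines, gave 1.11 for chromosome 6 and 0.921 for chromosome 3. EpiLC dKO over the same control gave 0.998 for chromosome 6 and 0.956 for chromosome 3, so the chromosome 3 value was low in both mutants and the chromosome 6 value was high in the dCD libraries. The intervals are narrow because each autosome holds many reads, and the spread between replicates is unknown.

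**Figure D1:**
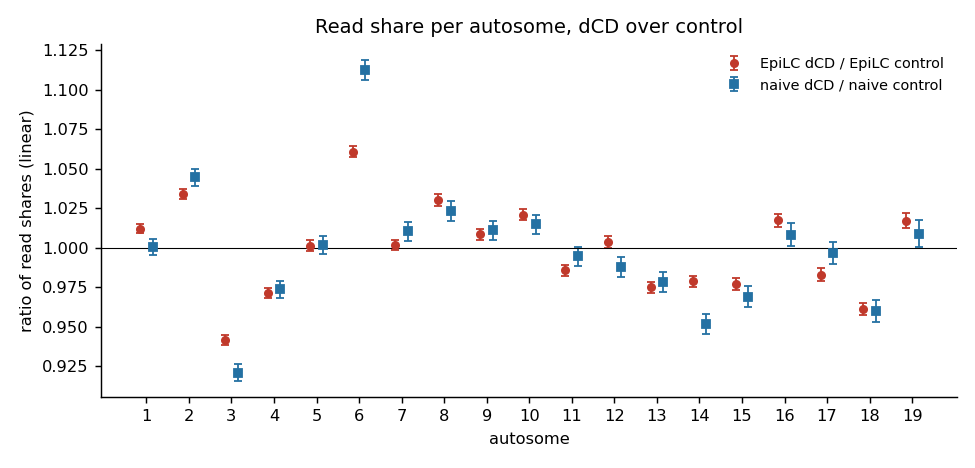
Ratio of read shares, dCD over control, for each of the 19 autosomes in EpiLCs (circles) and in the naive state (squares), on a linear axis, with 95% counting intervals. Chromosome 6 is highest and chromosome 3 lowest in both states.

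Windows of 5 Mb separated whole-chromosome differences from differences that ended inside a chromosome. A ratio of at least 1.2-fold higher was found in 4 of 495 windows with 5000 or more control reads (0.808%), and at least 1.2-fold lower in 6 (1.21%). The 4 higher windows were one unbroken run at the distal end of chromosome 2, chr2:165000001-182113000, with 77064 control and 129333 dCD reads and a ratio of 1.41 (1.39 to 1.42). That run was also higher in naive dCD, at 1.36, and stood at 1.04 in EpiLC dKO. It spans 199 protein-coding genes, with Cdh4, a cadherin, Tshz2, a zinc finger factor, and Phactr3, a phosphatase and actin regulator, the longest. The only run of more than 1 window on the lower side was chr18:80000001-90000000, with 39782 control and 29480 dCD reads and a ratio of 0.621 (0.611 to 0.630). Naive dCD gave 0.686 there and EpiLC dKO 1.02. The other lower windows were single. They were chr4:110000001-115000000 at 0.750, chr13:65000001-70000000 at 0.794, chr14:50000001-55000000 at 0.797 and chr15:30000001-35000000 at 0.813. Naive dCD gave 0.732, 0.821, 0.793 and 0.812 at these 4 windows in the same order, and EpiLC dKO 1.01 at each. Outside these stretches the rest of chromosome 2 had a ratio of 0.998 (0.995 to 1.001) and the rest of chromosome 18 a ratio of 0.998 (0.994 to 1.002), so the whole-chromosome values of both rest on their distal ends. The rest of chromosomes 4, 13, 14 and 15 stayed below 1. Their ratios were 0.977 (0.974 to 0.980), 0.980 (0.977 to 0.984), 0.986 (0.983 to 0.990) and 0.985 (0.981 to 0.989). In each of these stretches both states of the dCD line lay on the same side of 1. A read share also goes with the DNA copy number of a stretch and with how well reads of a strain map to the reference, and neither can be told apart from the mutation here.

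**Figure D2:**
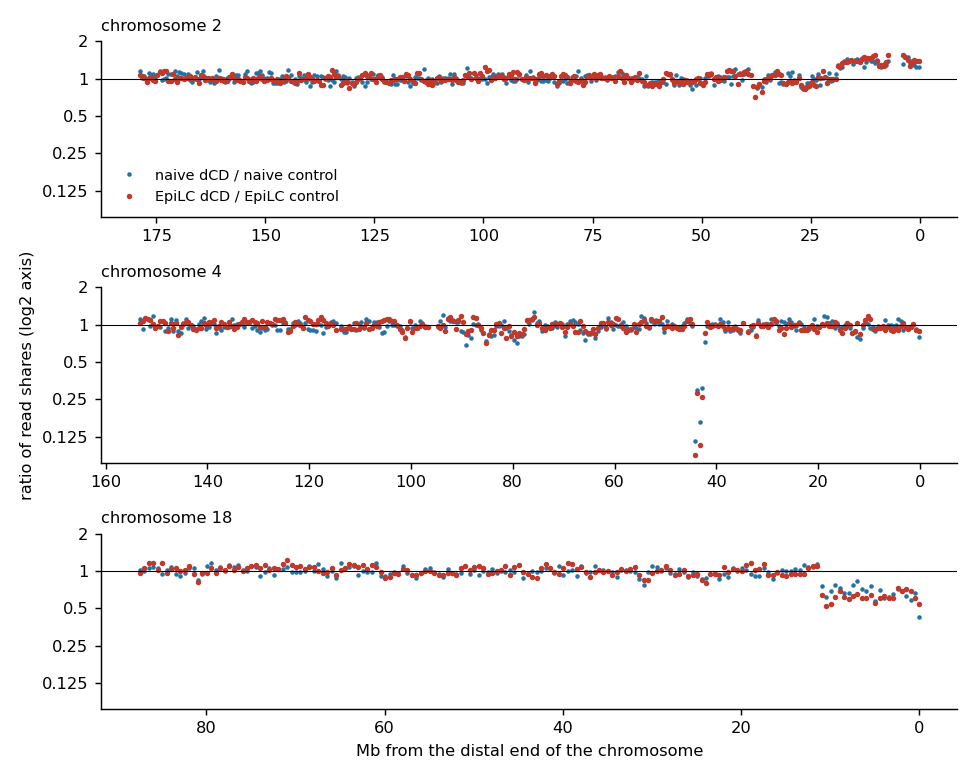
Ratio of read shares in 500 kb windows along chromosomes 2, 4 and 18, plotted by distance from the distal end of each chromosome on a log2 axis, for EpiLCs and for the naive state. The ratio is near 1 along most of each chromosome, above 1 in the distal stretch of chromosome 2, below 0.5 in a short stretch of chromosome 4 and near 0.6 in the distal stretch of chromosome 18.

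In 500 kb windows the largest gains all lay on distal chromosome 2 and the deepest losses in the Skint cluster of chromosome 4. A read share at least 1.2-fold higher was found in 71 of 4747 windows with 500 or more control reads (1.5%), and at least 1.2-fold lower in 145 (3.05%). The highest ratio was 1.56 (1.48 to 1.65) at chr2:178000001-178500000, a window with Phactr3, Sycp2, which encodes a synaptonemal complex protein, and the cadherin gene Cdh26. The next was 1.55 at chr2:174500001-175000000, which holds Zfp831 and Edn3, the gene of endothelin 3. The other 3 of the 5 highest, at 1.5 to 1.54, held no protein-coding gene. Naive dCD gave 1.24 to 1.4 in these 5 windows and EpiLC dKO 1.06 to 1.12. At the other end, chr4:112000001-112500000 had 1606 control reads and 171 dCD reads, a ratio of 0.0892 (0.0762 to 0.104). The next 3 windows along that chromosome gave 0.284, 0.107 and 0.260. All 4 hold Skint genes, a family of immunoglobulin-like genes of which Skint1 is known for the selection of epidermal gamma delta T cells. The fifth was chr13:61500001-62000000, with Ctsm and Cts3, of the placental cathepsins, at 0.321. Naive dCD gave 0.116 to 0.312 in these 5 windows, and EpiLC dKO 0.918 to 1.14. Skint and cathepsin genes have close copies, and reads of such copies may be placed on the wrong one.

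At 50 kb more windows were lower than higher in dCD. A ratio at least 1.5-fold higher was found in 148 of 47096 windows (0.314%) and at least 1.5-fold lower in 527 (1.12%). Windows entered on their control reads, which leaves out windows low in the control alone. With the minimum met in either library, 168 windows were higher and 527 lower, of 47149. Joined where they adjoined, the lower windows formed 287 runs, 206 of them of a single window. Chromosome 18 held 156 of the 527, chromosome 4 held 70 and chromosome 13 held 46, and 74 of the 148 higher windows were on chromosome 2. The longest lower run was 42 windows, chr4:112050001-114150000, with 6202 control and 1446 dCD reads and a ratio of 0.195 (0.184 to 0.207). Naive dCD gave 0.227 there and EpiLC dKO 0.987. The next longest was chr18:79650001-81050000, 28 windows at 0.536, which spans Atp9b, a membrane flippase gene, and Nfatc1, a calcium-responsive transcription factor. Shorter runs went lower: chr13:61650001-62000000, with no protein-coding gene, stood at 0.0874 (88 dCD reads against 843), and chr17:39900001-40200000, with the pheromone peptide gene Esp38, at 0.106. A run with Mtrr, the methionine synthase reductase gene, at chr13:68100001-68600000 stood at 0.389. The higher runs were shorter, the longest being 8 windows at chr2:170800001-171200000, which overlaps Dok5, an adaptor gene, at 1.63 (1.54 to 1.72). Outside chromosome 2, chr17:27250001-27400000 reached 1.69 (1.54 to 1.84) in EpiLCs, 1.89 in naive dCD and 0.969 in EpiLC dKO.

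Naive libraries were set beside EpiLC libraries at all of these windows. Of the lower 50 kb windows with enough naive reads, 279 of 526 were also at least 1.5-fold lower in naive dCD, which was 53.0% of the EpiLC list and 20.5% of the naive list. Among all windows 2.89% were that low in naive dCD. Of the higher windows 36 of 148 were also higher in naive dCD (24.3% of the EpiLC list and 5.29% of the naive list), where 1.45% of all windows were that high. Across windows, the log2 ratios of the 2 states had a Pearson correlation of 0.795 over 495 windows of 5 Mb, 0.603 over 4741 windows of 500 kb and 0.280 over 46994 windows of 50 kb. Both states share the parental lines and the base composition of a window. The SD of the EpiLC log2 ratio beyond counting error was 0.0977 at 5 Mb, 0.155 at 500 kb and 0.211 at 50 kb. GC content moved little with it: the 500 kb windows in the lowest quartile of GC content had a ratio of 1.04 as a whole and those in the highest 0.985.

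Fork direction was balanced on every autosome in both libraries. The Crick percentage of a whole autosome lay between 49.6% and 50.3% in the control and between 49.6% and 50.4% in dCD. The difference, dCD minus control, ranged from -0.206 percentage points on chromosome 1 to 0.160 on chromosome 10, and its counting interval left out 0 on 2 of 19 autosomes, both lower. Over 5 Mb, no window of 495 differed by 5 points or more (0% in either direction), the largest differences being 2.18 and -3.54 points. The counting interval of the difference left out 0 in 127 of these windows (25.7%). Chromosomes 6 and 3, which had the highest and the lowest read ratio, differed in Crick percentage by 0.011 and -0.204 points.

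Within chromosomes, forks in dCD EpiLCs were more one-sided than in the control. The amplitude of fork direction, the SD of the Crick percentage over windows after the binomial variance is taken off, was 6.43 points in the control and 8.60 in dCD over 4741 windows of 500 kb. The ratio was 1.34, and it lay between 1.26 and 1.39 on the 19 autosomes taken one at a time, above 1 on 19 of 19. At 5 Mb the amplitudes were 1.59 and 2.12 points, a ratio of 1.33 (1.13 to 1.49 by autosome). At 50 kb the ratio was 1.26 (1.23 to 1.3 by autosome). The slope of dCD on control was 1.3 at 500 kb, and the correlation with counting error removed was 0.970, so the same windows leaned the same way and leaned further in dCD. A Crick percentage of at least 60% or at most 40% was found in 658 windows of 500 kb in the control (13.9%) and 1239 in dCD (26.1%), 635 of them in both. EpiLC dKO had an amplitude of 7.25 points at 500 kb, between the control and dCD. Naive libraries had 8.02 points in control and 11.6 in dCD, so dCD was the more one-sided in that state as well. The T minus A slope was also steeper in dCD, as given above, and once that part of the reads was removed the ratio was 1.36 at 500 kb. With 1 track for each condition, a property of the cells and one of the library cannot be told apart here.

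**Figure D3:**
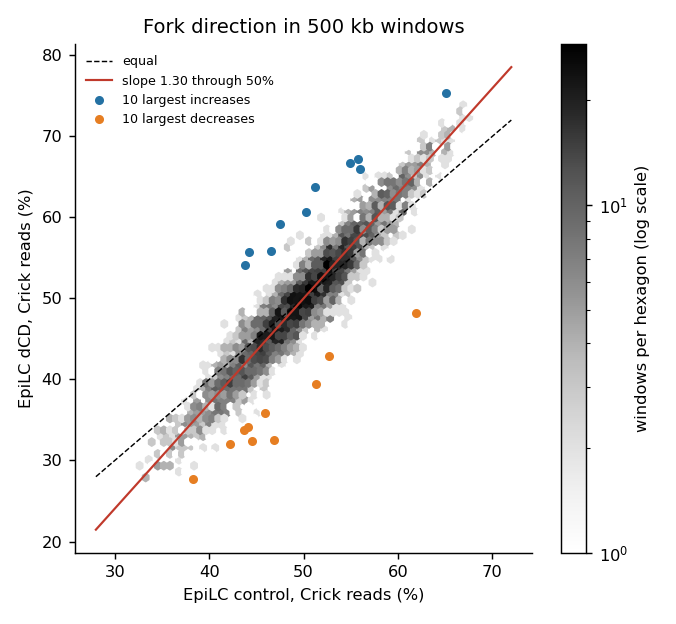
Crick percentage of each 500 kb window in EpiLC control (horizontal) and EpiLC dCD (vertical), as a density of 4741 windows with a log grey scale. The cloud follows a line of slope 1.3 through 50%, steeper than the dashed line of equal values, and the 20 named windows lie off it.

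Windows were also grouped by the naive control library, a library that had no part in the EpiLC values but came from the control line. In 170 windows of 500 kb below 35% Crick in naive control, EpiLC control averaged 37.4% and EpiLC dCD 33.3%, and dCD was the lower in 161 of them. In 174 windows at 65% or more in naive control, EpiLC control averaged 63.1% and dCD 67.4%, and dCD was the higher in 167. In the 2242 windows between 45% and 55%, the averages were 49.99% and 49.9%. The amplitude ratio also differed with GC content at 50 kb, from 1.16 in the quartile of windows with the lowest GC content to 1.32 in the quartile with the highest. At 500 kb the range was 1.24 to 1.38, in the same order. At 5 Mb the order did not hold: from the lowest to the highest GC content the ratios were 1.41, 1.28, 1.33 and 1.34. Over 500 kb windows with a read share within 1.2-fold of the control the ratio was 1.34.

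The largest differences of single windows lay in both directions. A difference of at least 10 points up was found in 9 of 4741 windows of 500 kb (0.190%) and of at least 10 points down in 8 (0.169%). The counts were 1 and 2 once the dCD deviation from 50% was divided by the amplitude ratio, and 6 and 5 once the T minus A part was removed. The counting interval left out 0 in 1806 windows (38.1%), and in 1495 of those dCD lay farther from 50% on the side where the control already was. Only 1 window was at or below 45% in the control and at or above 55% in dCD, and none the other way round (2 windows with no bin left out, 0 with window edges shifted by 250 kb). The 10 largest increases and the 10 largest decreases, from 9.36 to 12.5 and from -9.72 to -14.4 points, form 17 regions. In 17 of these 20 windows dCD was farther from 50% than the control. The windows just outside these sets differed by 9.16 and -9.64 points. Of the 20 windows 7 also had a read share more than 1.2-fold from the control, and their ratios ranged from 0.640 to 1.23. Over all 4747 windows, 1.5% were at least 1.2-fold higher and 3.05% at least 1.2-fold lower. In the naive libraries dCD minus control had the same sign in 20 of 20, with a counting interval clear of 0 in 16. The share of all windows with the same sign was not counted. Over all 4741 windows the differences of the 2 states had a Pearson correlation of 0.578, so the shared sign is not read as particular to these 20. Naive differences had a median of 9.62 points at the increases and -7.03 at the decreases.

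3 of the regions are pairs of adjoining windows in which one side was higher and the other lower. The first is the imprinted Dlk1 to Rtl1 domain of chromosome 12. Dlk1, a Notch-like regulator of differentiation, is at chr12:109452823-109463336 on the plus strand, and Rtl1, a retrotransposon-derived gene needed in the placenta, is at chr12:109589193-109600330 on the minus strand. In the left window, chr12:109000001-109500000, which also holds Begain and Wdr25, the Crick percentage was 51.3% in the control (2448 reads) and 39.4% in dCD (3039 reads). In the right window, to chr12:110000000, it was 55.9% and 66.0%. Forks on the left of the domain thus moved left more often in dCD and those on the right moved right more often. All 10 of the 50 kb windows on the left were lower in dCD and all 10 on the right were higher. These windows make up the named pair, which was picked for its differences, so their signs largely restate that choice. In all 3 pairs the EpiLC steps of control and dCD rest on the same reads as the choice. Within 200 kb of the shared edge the step from left to right was 12.3 points in the control (8.22 to 16.5) and 35.7 in dCD (32.4 to 38.9). EpiLC dKO had a step of 11.4 points, naive control 10.8 and naive dCD 47.8. The intervals of both dCD libraries lay above those of the other 3.

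The pair on chromosome 1 had the same form. Its left window, chr1:125000001-125500000, holds Actr3, a subunit of the Arp2/3 actin nucleator, and stood at 38.2% in the control and 27.7% in dCD. Its right window, to chr1:126000000, holds Gpr39, a zinc-sensing receptor, with Nckap5 and Lypd1, and stood at 55.8% and 67.2%. Here the control already had a step, of 18.9 points within 200 kb of the edge (14.1 to 23.6), against 37.5 in dCD (33.9 to 41.1). EpiLC dKO had 20.9 points, naive control 15.1 and naive dCD 35.7. Read share was 1.23 times the control in both windows.

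The pair on chromosome 18 went the other way. The left window, chr18:66000001-66500000, with Ccbe1, a lymphatic growth gene, Lman1, a cargo receptor of the early secretory pathway, and Pmaip1, which encodes the apoptosis inducer NOXA, stood at 43.8% in the control and 54.2% in dCD. The right window, to chr18:67000000, with Mc4r, the melanocortin receptor that acts in appetite, stood at 61.9% and 48.2%. The step of 500 kb windows was 18.1 points in the control and -5.97 in dCD, and in the naive state 13.4 and -1.77. EpiLC dKO had 14.98 points. Within 200 kb of the edge, however, a step of 16.6 points (12.4 to 20.8) remained in dCD, against 31.6 (27.8 to 35.3) in the control and 32.6 (29.1 to 36.2) in EpiLC dKO. Naive dCD had 27.7 points there (19.8 to 35.6) and naive control 32.9 (26.5 to 39.3). The control had a step in the same place as dCD, and its height differed between the EpiLC libraries, while the naive intervals within 200 kb overlap. Between the 500 kb windows the naive steps did differ, by -15.1 points (-21.9 to -8.36), dCD minus control.

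**Figure D4:**
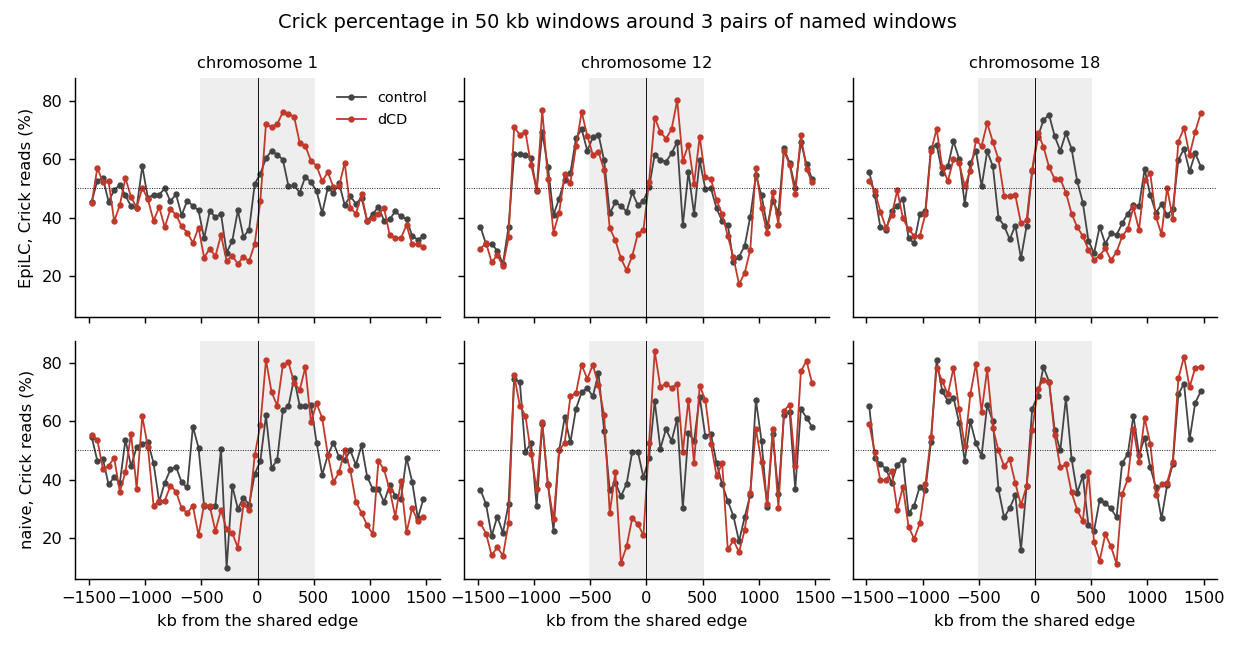
Crick percentage in 50 kb windows within 1500 kb of the shared edge of each pair, on chromosomes 1, 12 and 18, in EpiLCs (top) and in the naive state (bottom), for control (grey) and dCD (red). The shaded 500 kb on either side are the named windows, and the rise at the edge is steeper in dCD on chromosomes 1 and 12 and less high in dCD on chromosome 18 in EpiLCs. In the naive state the intervals of the chromosome 18 steps within 200 kb of the edge overlap. The naive steps between the shaded 500 kb windows differ there, by -15.1 points (-21.9 to -8.36).

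The remaining regions are single windows. The largest decrease was at chr11:66500001-67000000, 46.9% in the control and 32.5% in dCD, a difference of -14.4 points (-16.8 to -11.9), in a window that holds Pirt, a regulator of sensory ion channels, and part of Shisa6, an AMPA receptor auxiliary subunit. EpiLC dKO stood at 37.7%, and the naive libraries at 35.3% in control and 27.6% in dCD. The window with part of Tns3, a focal adhesion tensin, at chr11:8000001-8500000, stood at 44.6% in the control, 32.4% in dCD and 34.2% in dKO. In these 2 windows the EpiLC control was the highest of the 5 libraries compared. The largest increase was at chr18:85000001-85500000, a window with no protein-coding gene and a read ratio of 0.640, at 51.2% in the control and 63.7% in dCD. Naive values there were 57.2% and 78.0%. The only window at or below 45% in the control and at or above 55% in dCD was chr1:186000001-186500000, with Lyplal1, a lysophospholipase-like gene, at 44.2% and 55.7%. Its naive values, 47.4% and 50.3%, differed by 2.96 points with an interval of -1.75 to 7.66, which includes 0 and lies below the EpiLC interval of 8.70 to 14.3. At chr12:103000001-103500000, with Unc79, part of the sodium leak channel complex, the values were 47.5% and 59.1%. The window of Zfp536 and Uri1, chr7:37500001-38000000, went from 42.2% in the control to 31.98% in dCD, and that of Galnt10, chr11:57500001-58000000, from 45.9% to 35.8%. The other increases were at chr7:13500001-14000000, with Sult2a sulfotransferase genes, at 50.2% and 60.6%, at chr8:96000001-96500000, with no protein-coding gene, at 65.1% and 75.3%, and at chr13:66500001-67000000, with Ptdss1, a phosphatidylserine synthase gene, at 46.5% and 55.9%. The naive difference was 21.01, 9.49 and 9.74 points there. The other decreases were at chr17:55000001-55500000, with the sialyltransferase gene St6gal2, from 44.1% to 34.1%, at chr5:88000001-88500000, with the enamel matrix gene Ambn, from 43.7% to 33.7%, and at chr12:115000001-115500000, with no protein-coding gene, from 52.7% to 42.9%. Naive differences there were -8.88, -16.0 and -3.39 points, the last with an interval that includes 0. EpiLC dKO minus control ranged from 0.168 to 7.86 points in the 10 windows of increase and from -10.4 to 1.06 in the 10 windows of decrease.

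At 50 kb a difference of at least 20 points was found upward in 29 of 46998 windows (0.0617%) and downward in 42 (0.0894%). These counts were 16 and 24 once the T minus A part was removed, and 8 and 17 once the dCD deviation from 50% was divided by the amplitude ratio. The counting SD of a 50 kb difference was 4.49 points and the SD over windows 6.06. Differences of Crick percentage in the 2 states had a Pearson correlation of 0.578 at 500 kb and 0.257 at 50 kb. After the common slope of each state was taken off, the correlation of what remained was 0.223 at 500 kb and 0.123 at 50 kb, or 0.383 and 0.375 with counting error removed.

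Transcription start sites (TSSs) of protein-coding genes had more strand bias in dCD, by less than 1 point. For strand bias, Crick percentages of the 25 kb on either side of a TSS were subtracted, right minus left, which gives a positive value where forks start. The mean over 20202 TSSs was 4.32 points in the control and 5.01 in dCD, a difference of 0.698 (0.581 to 0.814), and it was above 0 on 19 of 19 autosomes, from 0.25 to 1.3. The 25 kb sides of neighbouring TSSs overlap and reuse reads. Intervals of means over TSSs take them as independent, so these can be too narrow even for counting error. The quartile of TSSs with the most CpG within 500 bases had 6.85 and 7.76 points, a difference of 0.910 (0.694 to 1.13). The quartile with the fewest had 1.29 and 1.65, a difference of 0.361 (0.0860 to 0.636), above 0 on 15 of 19 autosomes. The quartiles between had differences of 0.763 and 0.734. Once the T minus A part was removed, the difference over all TSSs was 0.264 and that of the quartile with the most CpG 0.159. The quartiles between then had 0.480 and 0.188. With 10 kb on each side the difference over all TSSs was 0.293, and from the fewest to the most CpG the quartiles had 0.693, 0.307, 0.00724 and 0.203, so the quartile with the fewest CpG had the largest. With 50 kb on each side the 2 quartiles with the most CpG had 1.17 and 1.28. The mean strand bias in dCD was 1.16 times the control over all TSSs, and from the fewest to the most CpG it was 1.28, 1.22, 1.13 and 1.13 times the control.

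Single TSSs were read from a median of 283 reads in the control and 324 in dCD, and the median counting SD of a difference was 7.93 points. A strand bias at least 10 points higher in dCD was found at 2904 of 20202 TSSs (14.4%) and at least 10 points lower at 2269 (11.2%). 5 gene lists were read against these shares. The list of naive pluripotency genes has 15 on autosomes, among them Pou5f1 and Sox2, which are not particular to the naive state. Of these 15, 3 were at least 10 points higher and 1 lower, with a median difference of 0.827 against 0.748 over all TSSs. Pou5f1, which encodes OCT4, had 6.11 points in the control and 25.2 in dCD, a difference of 19.1 (3.93 to 34.3), and -11.5 between the naive libraries. Nanog had 12.0 and 23.4 points and Tbx3 20.02 and 31.1, with intervals that include 0. Stat3, which carries the LIF signal, had 17.5 and 4.73.

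Of 15 formative and early primed genes, 3 were at least 10 points higher and 2 lower, and the median difference was 5.86 points. The mean was 3.29 with an interval of -0.561 to 7.15, which takes Zic2 and Zic5 as independent though they share reads. Zic2, a zinc finger factor of the early epiblast, had -3.65 points in the control and 24.97 in dCD, a difference of 28.6 (14.98 to 42.3), and its divergent neighbour Zic5, which shares some of its reads, 17.8. In the naive libraries Zic2 differed by 1.67 points and Zic5 by -5.05. Otx2, a driver of the exit from the naive state, had 3.10 and 8.96, Fgf5, a marker of EpiLCs, -3.85 and -6.61, and Dnmt3b, a de novo DNA methyltransferase, 33.0 and 21.7. Etv4, an ETS factor downstream of FGF, was lower by 14.7 points (-29.0 to -0.377), and by 24.3 in the naive libraries. Sall2 had a read ratio of 0.799 in its 500 kb window, within the low 5 Mb window of chromosome 14, and was the only listed gene of the 5 lists past 1.2-fold.

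Of 16 genes for the KMT2C/D complex and other H3K4 methylation enzymes, 4 were at least 10 points higher and 3 lower, with a median of 4.02 points. The interval left out 0 for Paxip1, which encodes the KMT2C/D subunit PTIP, at 17.5 points higher (1.58 to 33.4), and for Setd1a and Setd1b, H3K4 methyltransferases of the SET1 complexes, at -18.0 (-32.1 to -3.91) and -16.8 (-30.9 to -2.78). In the naive libraries these 3 genes differed the other way, by -13.8, 3.12 and 3.05 points. The mutated genes themselves had 14.95 and 2.12 points at Kmt2c and -3.03 and 8.65 at Kmt2d, with intervals of the difference that include 0. The 29 genes of origin licensing and firing had a median of -0.0207 points, with 2 higher and 2 lower. Orc4, a subunit of the origin recognition complex, had 30.7 points in the control and 12.6 in dCD (interval of the difference -34.0 to -2.24), and Donson, a factor of helicase assembly, -9.05 and 6.91 (0.661 to 31.3). The naive difference was -15.6 points at Orc4 and -11.3 at Donson, of the opposite sign to EpiLCs at Donson. The list for lagging strand synthesis and Okazaki fragment maturation has 21 genes, among them Pole and Pole2 of the leading strand polymerase epsilon. These 21 had a median of -0.536, with 1 higher and 2 lower. The 1 was Prim2, the large primase subunit, at -1.58 and 19.5 points (interval 7.13 to 34.98) and 9.45 points higher in the naive libraries, while Lig1, Fen1 and Pcna had differences of 6.05, -7.88 and -1.65. The 500 kb windows of listed genes had read ratios from 0.799 to 1.08 and Crick differences from -6.00 to 7.39 points.

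**Figure D5:**
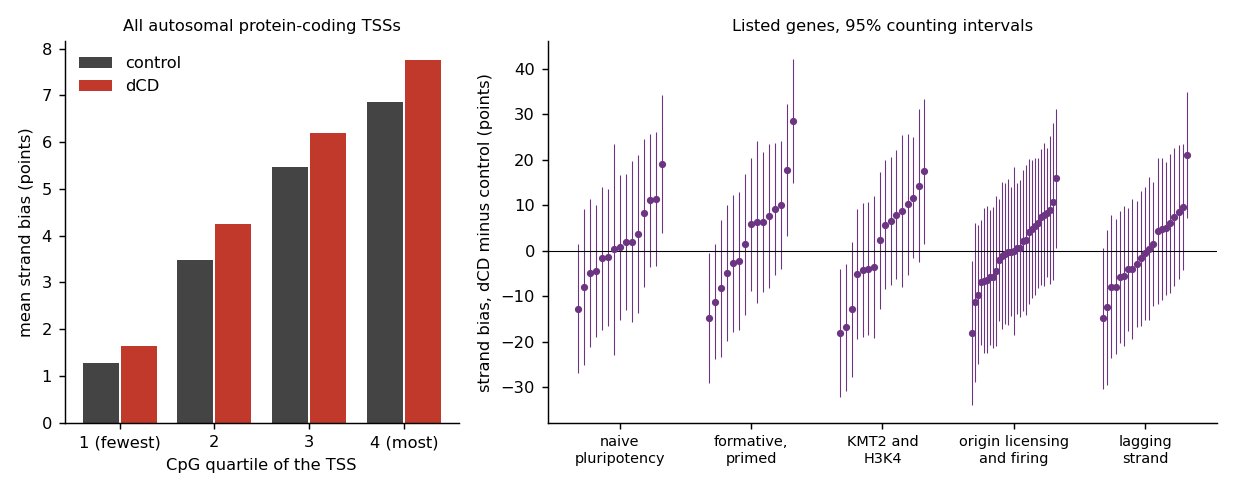
Left, mean strand bias in points at autosomal protein-coding TSSs by CpG quartile in control (grey) and dCD (red), rising from 1.29 to 6.85 in the control and from 1.65 to 7.76 in dCD. Right, strand bias of dCD minus control for each listed gene with its 95% counting interval, ordered by size within a list, most of which include 0.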

How the data were processed

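OK-seq of genomic DNA was analysed in 12 samples, 2 biological replicates for each of 6 conditions. According to the methods, the authors aligned reads to mm10 with Bowtie2 and counted Watson and Crick reads in 1 kb bins. The deposited tracks hold signal: reads per base, both replicates of a condition summed. Multiplied by 1000, all values were whole reads, and the position column marks the bin end. The submitters' processing notes also name FastQC, Trim Galore and Picard, and versions and the mapping quality filter are not given in the sources used here. Reads of each condition were summed in windows of 50 kb, 500 kb and 5 Mb with minimums of 50, 500 and 5000 reads. 130 bins over 10 times a median were left out. Crick differences carry Newcombe intervals and read ratios log-ratio Poisson intervals, both 95% and both for counting error only. Named windows were the 10 largest and 10 smallest Crick differences and the 5 highest and 5 lowest read ratios at 500 kb, with up to 3 overlapping protein-coding genes (GENCODE M21), and runs of adjoining windows. Of the 2 bins with the most and the 2 with the least T minus A content, 3 are shown with sequence. 1 bin and 1 of the named windows are not reported here. The members and lists were chosen with earlier results of these data known. Scripts were tested on simulated data (Python 3.11.15, numpy 2.4.6, pandas 2.3.3, scipy 1.17.1). Alternatives changed the bins left out, window edges, depth, minimums, scaling, GC and T minus A corrections, and TSS sides.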

Additional observations from a re-analysis of the deposited data

How the results depend on the processing

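Of 242 alternative values for 59 results, 220 stayed within the counting interval, within the range over autosomes or, for counts of windows, within 1.5 times the value reported. 5 values changed sign, all of them mean differences over gene lists whose counting intervals include 0. With 10 kb sides the mean went from 1.72 to -0.121 for naive pluripotency genes, from 1.29 to -0.0127 for H3K4 methylation genes and from 0.241 to -0.339 for licensing genes. After removal of the T minus A part it was -0.503 for licensing genes and went from 0.0718 to -0.358 for lagging strand genes, which had 2.09 with 10 kb sides and 2.003 with 50 kb sides. All 60 values of the 20 named windows stayed within their intervals without bins left out, with dCD thinned to the control depth and after removal of the T minus A part. Without bins left out, the values of these windows were identical to those reported, so that alternative put nothing to trial. The other alternatives reused the same reads. Counts of read share windows, the spread of the read ratio and the amplitude ratio stayed so under every alternative run. When the dCD deviation from 50% was divided by the amplitude ratio, the count of windows with Crick differences at 500 kb was 1 higher and 2 lower, at 50 kb 8 and 17, and the opposite windows numbered 0. With the T minus A part removed, 5 windows of 500 kb were lower, and at 50 kb 16 were higher and 24 lower. The opposite windows numbered 2 with no bin left out and 0 with shifted edges. Strand bias differences at TSSs also moved. Over all TSSs the difference was 0.293 with 10 kb sides, 0.907 with 50 kb sides and 0.264 after removal of the T minus A part. From the fewest to the most CpG it was 0.693, 0.307, 0.00724 and 0.203 with 10 kb sides. With 50 kb sides it was 1.17 and 1.28 in quartiles 3 and 4. After that removal it was 0.480, 0.188 and 0.159 in quartiles 2 to 4. The cause was not tested. Limiting windows or TSSs to those with read shares within 1.2-fold of the control and taking the minimum of reads in either library were chosen after seeing the data, and neither moved a value out of its interval or a count by over 1.5 times. No paired analysis was possible because the tracks sum the replicates, so no replicate could be left out either. Depth limits single TSSs, whose counting SD is near 8 points, and 50 kb windows of the naive libraries.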

Other observations

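The sex chromosomes were left out of every comparison above. Reads on the X chromosome came to 2.81% of the autosomal reads in EpiLC control and 2.79% in EpiLC dCD. The Y chromosome held 9328 reads in EpiLC control, a line whose sex is given as undetermined, and 9748 in EpiLC dCD, a male line. Naive control had 2.64% and 3574 reads and naive dCD 2.62% and 2470 reads. Reads of repeated Y sequence cannot be placed with certainty, and no comparison was made from these values.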
